A study of Mus musculus with 6 samples.

Results

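The mitochondrial ribosomal proteins were taken as all rows of the deposited gene table whose symbol begins with Mrpl or Mrps followed by a number, leaving out pseudogene names. The rule found 77 genes of 24421 in the table, 48 named for the large subunit (Mrpl) and 29 named for the small subunit (Mrps). All 77 passed the filter on low values, so the 77 are part of the 11360 genes tested. The rule used gene names only and no measured value, but it was chosen with earlier results of these data known.

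The mitochondrial ribosome, or mitoribosome, translates the few messenger RNAs that are made from mitochondrial DNA, all of which encode subunits of the respiratory chain and of ATP synthase. Its ribosomal RNAs come from mitochondrial DNA, but every one of its proteins is encoded in the nucleus, made in the cytosol and imported. Part of the proteins have a relative in the bacterial ribosome, and the rest were added in the line that led to mitochondria. T cells build up mitochondrial translation when they are activated, and helper T cells depend on it for cytokine production.

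Messenger RNA was sequenced from wild-type mouse CD4 T cells, isolated as naive cells from spleen and cultured under conditions that favour Th17 cells, the helper T cells that make interleukin 17. Of the 6 samples, 3 were labelled vehicle (numbers 3, 4 and 7 in their titles) and 3 pemafibrate (numbers 3, 7 and 8). Pemafibrate, an activator of the nuclear receptor PPARalpha used as a lipid-lowering drug, was given at 10 nM until day 2, and the cells were then fed with serum medium for 2 days, as the labels describe it. All samples shared the genotype, the medium and the culture scheme, and the labels do not say whether they came from separate mice or cultures, so the p-values speak only of the variation among these 6 samples, and that variation may be technical.

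The libraries held 14935351 to 18322467 reads, and a member gene had between 234 and 2853 reads in any 1 library. The T cell genes Cd3e, Cd3d, Cd3g, Cd4, Cd2 and Cd5 summed to 1455 to 1530 RPKM in vehicle and 1460 to 1516 RPKM in pemafibrate. The Th17 genes Il17a, Il17f, Rora, Il23r and Ccr6 summed to 1748 to 1950.2 RPKM in vehicle and 1299.7 to 1597 RPKM in pemafibrate, without overlap. Il17f made up most of each sum, with a mean of 1454 RPKM over the 6 libraries. The other means were 161 RPKM for Il17a, 28.2 RPKM for Ccr6, 13.1 RPKM for Rora and 4.88 RPKM for Il23r. The part of the difference between these sums in the member results was not tested. Markers of other spleen cells were low, with sums of 5.18 to 6.23 RPKM for 5 B cell genes, 7.84 to 13.9 RPKM for 6 myeloid genes, 4.86 to 6.98 RPKM for 2 CD8 T cell genes, 0.913 to 1.40 RPKM for 5 dendritic cell genes and at most 0.202 RPKM for 4 natural killer cell genes, of which Klra8 was at 0. Of 4 red blood cell genes, the haemoglobin genes Hbb-bs, Hbb-bt and Hba-a1 were at 0, and Alas2 measured 0.496 to 1.01 RPKM. Because these were bulk samples, fewer cells of a type and less RNA per cell cannot be told apart.

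The promoters of 4 members are shown as examples of the range among them: Mrpl12 has the highest level, Mrps6 the highest and Mrps26 the lowest log2 difference between the treatments, and Mrpl37 the highest log2 difference in the large subunit. Each run covers 250 bases before to 50 bases after the RefSeq start of the gene (GRCm38.p6, 5′ to 3′ on the strand of the gene). Capitals mark matches to the motifs described afterwards. Mrpl12 lies at chr11:120484387-120484686 on the plus strand, Mrps6 at chr16:92058086-92058385 on the plus strand, Mrps26 at chr2:130563507-130563806 on the plus strand and Mrpl37 at chr4:107066817-107067116 on the minus strand.
Mrpl12: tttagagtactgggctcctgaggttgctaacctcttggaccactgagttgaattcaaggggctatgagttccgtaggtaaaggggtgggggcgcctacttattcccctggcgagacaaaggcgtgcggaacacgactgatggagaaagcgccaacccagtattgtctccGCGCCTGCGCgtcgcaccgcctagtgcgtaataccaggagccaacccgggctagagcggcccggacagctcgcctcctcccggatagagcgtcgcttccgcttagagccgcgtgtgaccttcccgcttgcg
Mrps6: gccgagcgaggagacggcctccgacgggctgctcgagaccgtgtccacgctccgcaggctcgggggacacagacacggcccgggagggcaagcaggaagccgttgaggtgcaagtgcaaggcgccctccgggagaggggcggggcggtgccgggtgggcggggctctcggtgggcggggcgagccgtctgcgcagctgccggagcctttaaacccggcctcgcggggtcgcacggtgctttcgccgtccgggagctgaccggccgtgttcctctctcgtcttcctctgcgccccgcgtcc
Mrps26: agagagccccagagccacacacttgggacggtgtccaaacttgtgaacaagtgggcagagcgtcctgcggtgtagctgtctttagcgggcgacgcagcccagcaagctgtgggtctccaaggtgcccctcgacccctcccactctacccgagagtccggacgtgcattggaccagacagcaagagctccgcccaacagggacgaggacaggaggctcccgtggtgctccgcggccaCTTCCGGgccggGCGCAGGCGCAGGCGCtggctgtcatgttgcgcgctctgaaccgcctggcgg
Mrpl37: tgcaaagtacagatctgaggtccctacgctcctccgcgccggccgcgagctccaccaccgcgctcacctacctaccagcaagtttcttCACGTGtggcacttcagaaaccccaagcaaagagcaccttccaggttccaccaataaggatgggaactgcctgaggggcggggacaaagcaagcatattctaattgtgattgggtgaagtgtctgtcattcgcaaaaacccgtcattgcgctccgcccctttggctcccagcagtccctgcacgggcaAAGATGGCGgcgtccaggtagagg

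RefSeq gave 74 promoter windows of 300 bases for 68 of the 77 genes. The ETS motif CCGGAAG, which factors such as GABP bind, was found on either strand in 25 windows (33.8%), against 19.0% of 10804 windows of tested genes and 8.86% of all 32851 windows. The motif of NRF1, an activator of nuclear genes for mitochondria, was found in 13 windows (17.6%), against 10.7% and 4.60%. The YY1 motif AANATGGCG was in 10 windows (13.5%), against 5.45% and 2.38%, and the E box CACGTG in 7 (9.46%), against 10.3% and 7.15%. The direct repeat that PPAR receptors bind was in none of the 74 windows, against 0.241% and 0.381%. By gene, 34 of the 68 had an NRF1 or an ETS match. These shares describe letters in a short window and do not show that a factor was bound. In the windows printed, Mrpl12 has 1 NRF1 match, Mrps26 has 2 overlapping NRF1 matches and 1 ETS match, Mrpl37 has an E box and a YY1 match, and Mrps6 has none.

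Levels spanned a 22.4-fold range when reads were scaled to gene length. The median over the 77 genes was 41.8 RPKM (read numbers divided by the length of the gene and by the total reads of the library), against 12.8 RPKM over all tested genes, and 72 of the 77 lay above that second median. Large and small subunit genes had nearly the same median level, at 41.3 and 44.7 RPKM. Together the 77 genes took 0.386% to 0.418% of the reads of a library.

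In the large subunit the highest levels belonged to Mrpl12, Mrpl20 and Mrpl52. Mrpl12 encodes the protein of the flexible stalk to which translation factors bind, and it measured 158, 166 and 156 RPKM in vehicle 3, 4 and 7 and 164, 164 and 161 RPKM in pemafibrate 3, 7 and 8. The groups overlapped for Mrpl12, and its 6 values lay close together. Mrpl20 measured 165, 147 and 155 RPKM in the vehicle samples and 174, 157 and 154 RPKM in the pemafibrate samples, in the same order of libraries. Mrpl52 measured 145, 126 and 135 RPKM against 155, 149 and 125 RPKM. Pemafibrate 3 was the highest library for Mrpl20 and Mrpl52, and the groups overlapped for both. The lowest large subunit genes were Mrpl1 (mean of 7.22 RPKM over 6 libraries), Mrpl17 (9.08 RPKM) and Mrpl35 (11.5 RPKM).

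In the small subunit Mrps21, whose product is a small protein with a bacterial relative, was the highest, at 105, 104 and 103 RPKM in vehicle 3, 4 and 7 and 114, 103 and 100 RPKM in pemafibrate 3, 7 and 8. The groups overlapped. Mrps16 (84.8 RPKM) and Mrps26 (68.5 RPKM) came next by their means over 6 libraries. Mrps25 (7.82 RPKM), Mrps31 (15.1 RPKM) and Mrps14 (22.4 RPKM) were the lowest. Mrps25 shares 69.8% of its GENCODE exon bases with Nr2c2 on the opposite strand, and the strand setting of the counting is not given in the sources used here.

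In the order of the 77 genes by mean level, 71 of 76 neighbouring pairs had ranges over the 6 libraries that overlapped, so most neighbours did not differ beyond their spread. The order also depends on the gene model used for scaling. The lengths implied by the deposited values ran from 407 to 6712 bases with a median of 1053, and 5 genes exceeded 3000 bases. Those 5 were Mrpl17 (6712 bases), Mrps25 (6065), Mrpl19 (5000), Mrpl15 (4201) and Mrpl35 (3695). Mrpl17 had a mean of 1050 reads per library, above the median of 827 reads over the members, but was the third lowest per length. By reads alone the members spanned a 10.1-fold range.

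**Figure D1:**
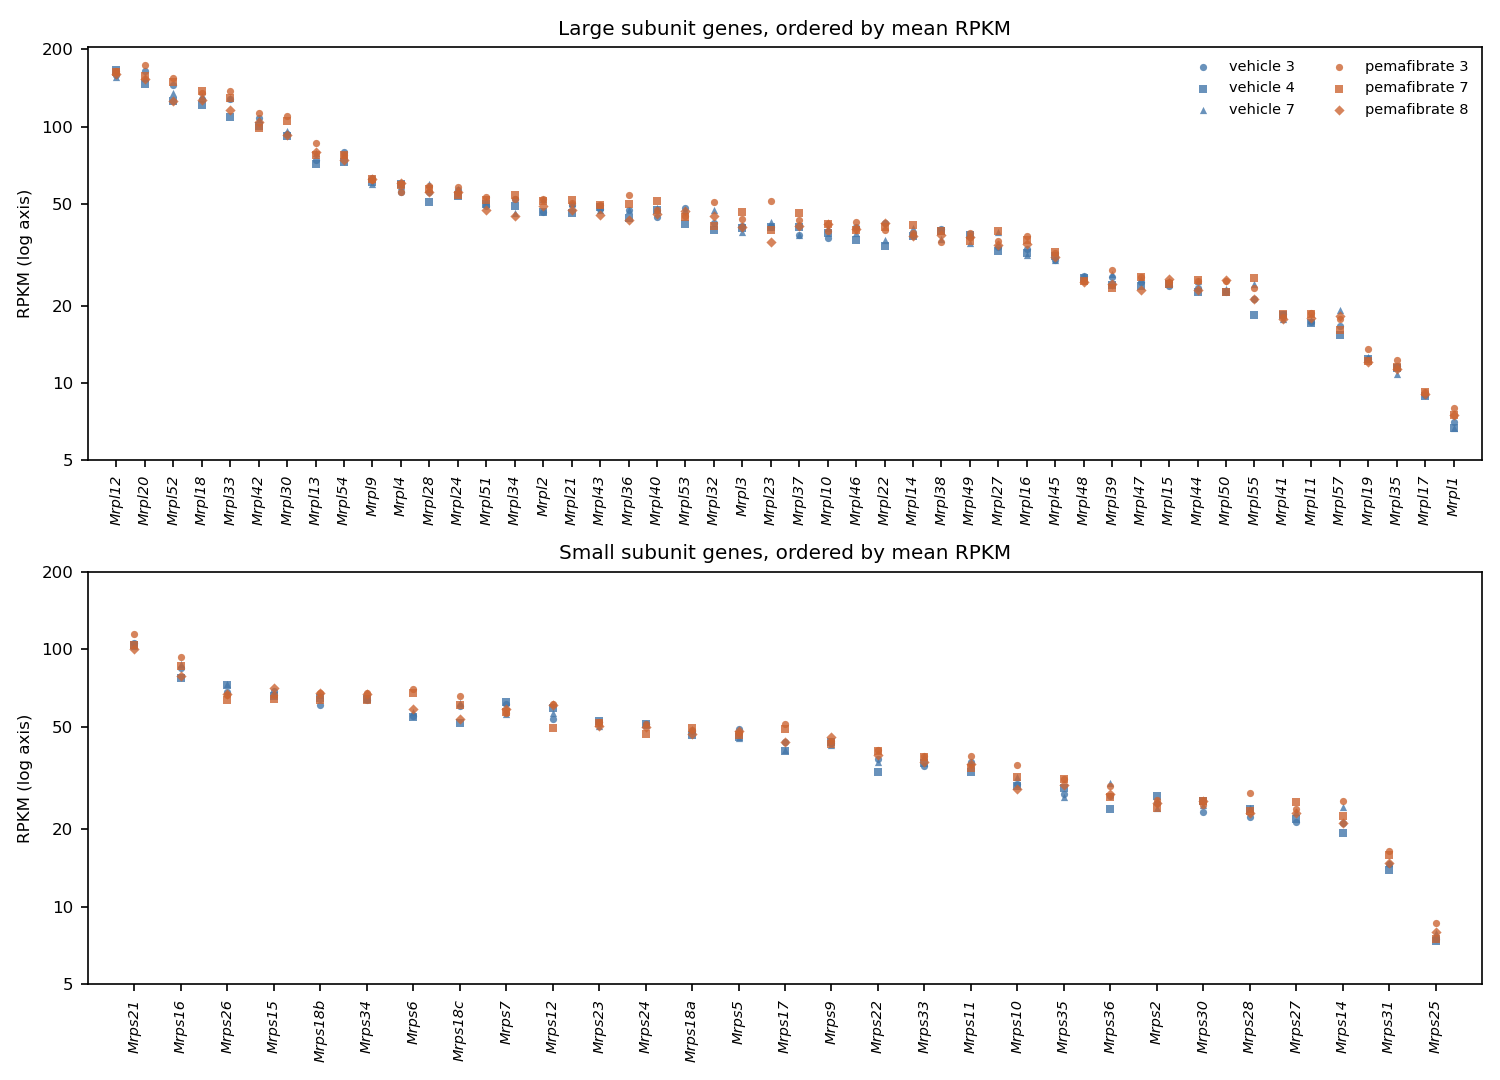
RPKM on a log axis for each of the 48 large subunit genes (top) and 29 small subunit genes (bottom), ordered by mean, with 1 point per library (blue for vehicle, orange for pemafibrate). Colour and marker shape together name the library, as in the legend, and the same shape can stand for different title numbers. Levels run from 7.22 RPKM for Mrpl1 to 161 RPKM for Mrpl12, and the 6 points of a gene lie close together compared with the range between genes.

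The comparison of treatments asked whether the genes of the mitoribosome differ after pemafibrate. No member passed an adjusted p of 0.05 by limma, in either direction, where 0.352% of the 11360 tested genes did. The smallest adjusted p of a member was 0.223, for Mrpl16. By voom on the recovered reads 0 members passed as well, against 1.25% of 11857 genes, and the smallest adjusted p was 0.171, for Mrps6. In the authors' deposited table no member had an adjusted p under 0.05 either, against 1.19% of its 24421 genes, and the smallest was 0.0589, again for Mrps6. Before adjustment, 10 members had a limma p under 0.05, where 9.67% of all tested genes did. Of the 10, 9 were higher (11.7% of the members, against 4.76% of all tested genes) and 1 was lower (1.30%, against 4.9%). Voom had 7 such members, where 9.62% of its genes did.

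Differences were small for every member. The fitted log2 differences ran from -0.12 for Mrps26 to 0.23 for Mrps6, and 62 of 77 were smaller than 0.1 in size. The 95% intervals of limma, which are not adjusted for the number of genes, reached at most 1.31-fold higher (Mrps6) and at most down to 0.837-fold (Mrpl23) over the 77 genes. Of these intervals 67 included 0, and their median half-width was 0.12 on the log2 scale.

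More members lay above 0 than below. Of the 77 log2 differences 66 were above 0, against 52.6% of all tested genes. The median was 0.04 for the large subunit, with 42 of 48 above 0, and 0.05 for the small subunit, with 24 of 29 above 0, beside 0.0052 over all tested genes. The pemafibrate samples lay wholly above the vehicle samples in 8 members (10.4%, against 7.67% of all tested genes) and wholly below in 2 (2.60%, against 7.31%). A log2 difference of 0.05 corresponds to a few percent, and these counts and medians carry no test of the list.

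**Figure D2:**
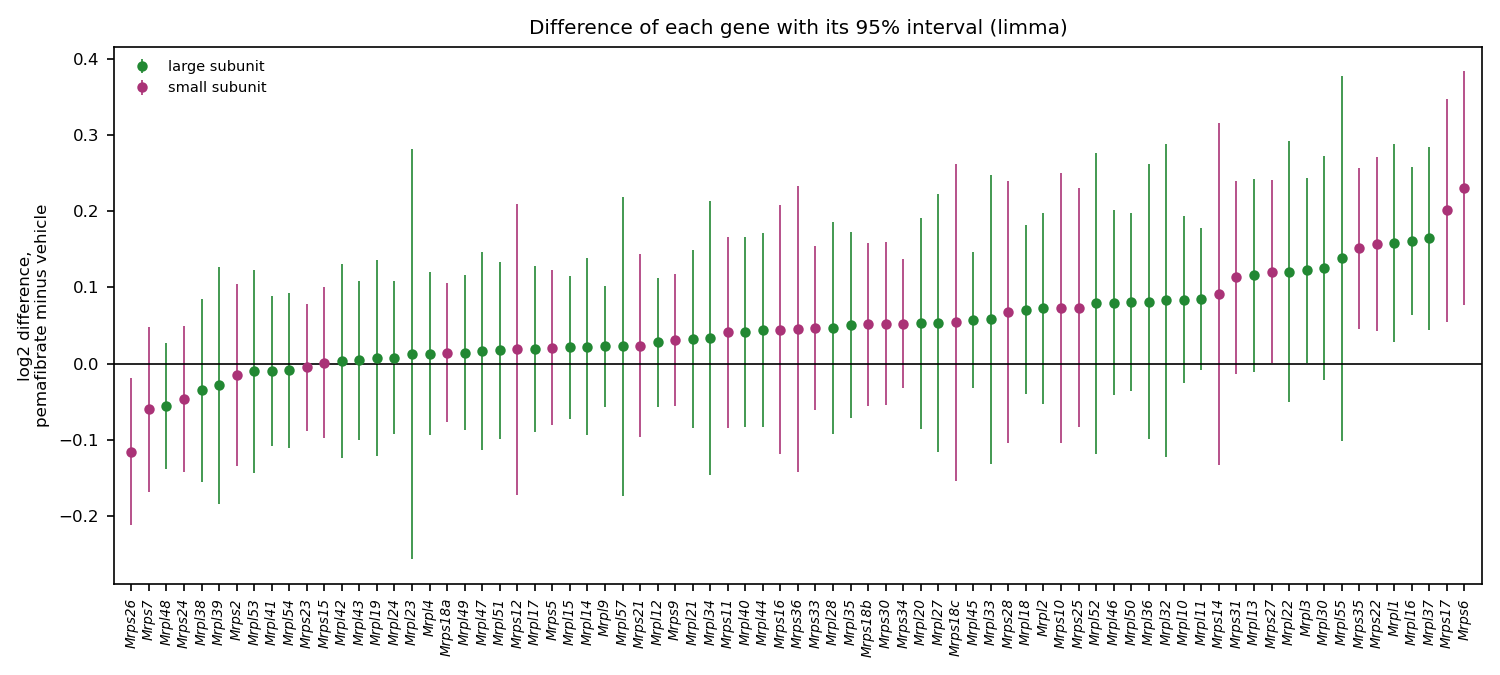
Log2 difference (pemafibrate minus vehicle, on log2(RPKM + 0.5)) of each of the 77 genes with its 95% interval from limma, in ascending order, green for the large and purple for the small subunit. Of the 77 points 66 lie above 0, and 67 of the intervals include 0.

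Libraries differed within each group in their mitoribosome level. Each gene was expressed as its deviation from its own mean over the 6 libraries, on log2(RPKM + 0.5), and averaged over the subunit. For the 48 large subunit genes the mean deviation was -0.01, -0.07 and 0.0030 for the vehicle libraries 3, 4 and 7, and 0.07, 0.03 and -0.03 for the pemafibrate libraries 3, 7 and 8. For the 29 small subunit genes it was -0.03, -0.05 and -0.0012 in the vehicle libraries and 0.09, 0.0033 and -0.01 in the pemafibrate libraries, in the same order. Pemafibrate 3 was the highest and vehicle 4 the lowest for both subunits, and the groups overlapped, since pemafibrate 8 lay below vehicle 7.

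Pemafibrate 3 was the highest of the 6 libraries in 38 of the 77 genes (49.4%, against 20.2% of all tested genes), and vehicle 4 was the lowest in 32 (41.6%, against 19.2%). Without pemafibrate 3 the median log2 difference was 0.02 for the large and 0.01 for the small subunit, with 51 of 77 genes above 0. Without vehicle 4 the medians were 0.02 and 0.04, with 56 of 77 above 0. The cytosolic ribosomal proteins had the same libraries at their ends, with mean deviations over 81 genes of 0.13 in pemafibrate 3 and -0.12 in vehicle 4. The nuclear genes of the respiratory chain and ATP synthase did too, with 0.09 and -0.09 over 79 genes. Over all 11360 tested genes the same mean was 0.00038 in pemafibrate 3 and -0.0048 in vehicle 4. The part of these libraries' shared deviation in the member results was not tested.

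**Figure D3:**
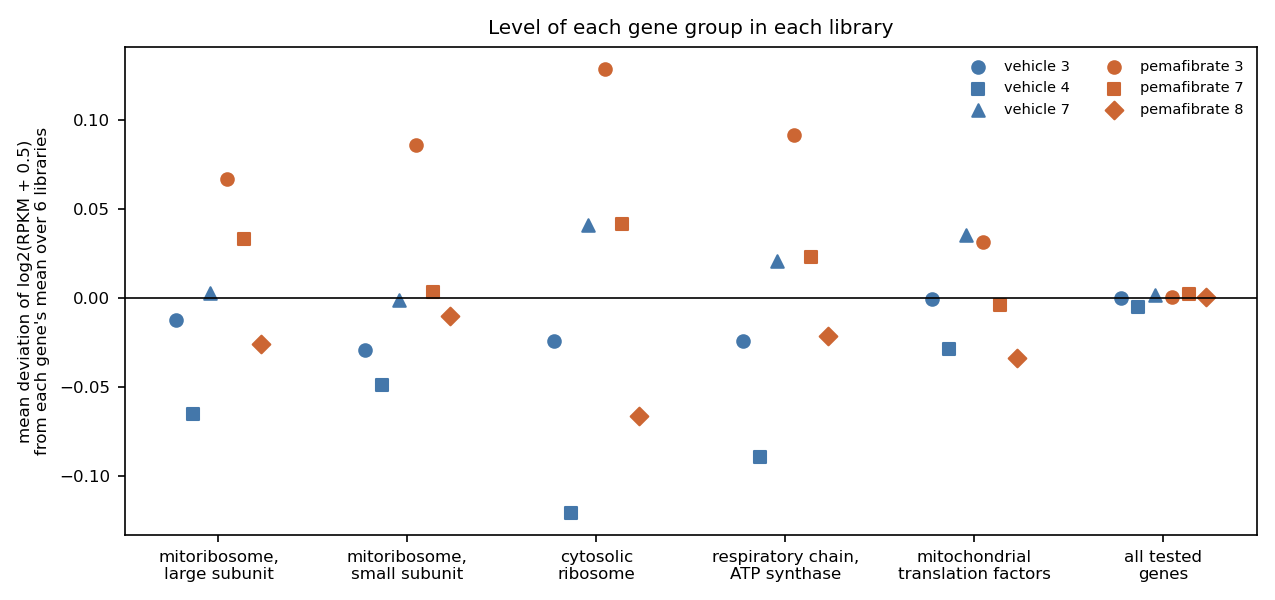
Mean deviation of log2(RPKM + 0.5) from each gene's own mean over the 6 libraries, for 6 gene groups, with 1 point per library. Pemafibrate 3 is the highest and vehicle 4 the lowest library in both mitoribosome groups, in the cytosolic ribosome and in the respiratory chain group, and all libraries lie near 0 over all tested genes.

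Among large subunit genes, 4 had an unadjusted p under 0.05, all of them higher in pemafibrate. Mrpl16 (chromosome 19, 11770415 to 11774956, GRCm38) encodes a protein near the catalytic centre. It measured 33.1, 32.2 and 31.4 RPKM in vehicle 3, 4 and 7 and 37.3, 36.2 and 34.8 RPKM in pemafibrate 3, 7 and 8. The groups did not overlap, and the log2 difference was 0.16 ± 0.04 (SE), with a limma adjusted p of 0.223. Mrpl37 (chromosome 4, 107055874 to 107066866), a protein with no bacterial relative, measured 37.9, 40.4 and 37.8 RPKM against 43.3, 46.0 and 41.0 RPKM. Its groups did not overlap either, with pemafibrate 7 the highest, and the log2 difference was 0.16 ± 0.05 (limma adjusted p = 0.337).

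Mrpl1, the protein of the stalk on the tRNA exit side and the gene with the fewest reads, measured 7.02, 6.68 and 6.68 RPKM in the vehicle samples and 7.98, 7.48 and 7.46 RPKM in the pemafibrate samples, without overlap (limma: log2 difference 0.16 ± 0.06, adjusted p = 0.407). Mrpl3, whose bacterial relative reaches towards the catalytic centre, measured 40.7, 40.3 and 38.9 RPKM against 43.7, 46.4 and 40.7 RPKM. Pemafibrate 8 and vehicle 3 met for Mrpl3, and the log2 difference was 0.12 ± 0.05 (limma adjusted p = 0.516). Without pemafibrate 7 the log2 difference of Mrpl3 was 0.08 with an unadjusted limma p of 0.179, and its unadjusted p was under 0.05 in 5 of 16 alternatives. For the other members with such a p in the main fit, the number was 9 for Mrps27, 11 for Mrpl1 and 12 for Mrps26. Mrpl37 and Mrps22 had such a p in 15 of the 16, and Mrpl16, Mrps17, Mrps35 and Mrps6 in all 16.

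Classes by position in the ribosome were written after the values were seen, cover only some genes, and were not tested against each other. Over all 77 members 85.7% lay above 0. The 4 genes for proteins near the catalytic centre (Mrpl2, Mrpl3, Mrpl16 and Mrpl27) had a median log2 difference of 0.10 and were all above 0. Of these 4, 2 (Mrpl3 and Mrpl16) are named above for an unadjusted p under 0.05. The 6 genes for proteins around the exit tunnel (Mrpl17, Mrpl22, Mrpl23, Mrpl24, Mrpl45 and Mrpl47) were all above 0 as well, with a median of 0.02. Of 5 stalk genes (Mrpl10, Mrpl11, Mrpl12, Mrpl53 and Mrpl54) 3 were above 0, with a median of 0.03. Mrpl11 stood apart between the groups by a narrow margin, with 17.2, 17.2 and 17.5 RPKM in the vehicle samples and 18.7, 18.6 and 17.9 RPKM in the pemafibrate samples (limma: log2 difference 0.09 ± 0.04, adjusted p = 0.577). Of 5 genes for the central protuberance, the crest of the large subunit (Mrpl18, Mrpl38, Mrpl40, Mrpl46 and Mrpl48), 3 were above 0, with a median of 0.04. Mrpl48 measured 26.1, 25.6 and 26.1 RPKM against 25.0, 24.9 and 24.8 RPKM and was the only large subunit gene with all pemafibrate samples below all vehicle samples (limma: log2 difference -0.06 ± 0.04, adjusted p = 0.721).

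The lowest log2 differences in the large subunit were -0.06 for Mrpl48, -0.04 for Mrpl38, -0.03 for Mrpl39 and -0.01 for Mrpl53, and none of them had an unadjusted p under 0.05. Mrpl44, a protein related to RNase III in which human mutations cause a heart muscle disease, measured 23.4, 22.5 and 25.0 RPKM in the vehicle samples and 25.0, 25.2 and 23.0 RPKM in the pemafibrate samples, with overlap (limma adjusted p = 0.874). The widest spread within groups belonged to Mrpl23 and Mrpl55. Mrpl23 measured 40.5, 40.5 and 42.4 RPKM in the vehicle samples and 51.0, 39.6 and 35.4 RPKM in the pemafibrate samples, so that pemafibrate samples were both the highest and the lowest. Its SD within groups was 0.191 on the log2 scale, against a median of 0.0667 over the 77 members and of 0.0651 over the 6929 tested genes in the same range of levels. Mrpl55 measured 21.2, 18.4 and 24.2 RPKM against 23.5, 25.5 and 21.1 RPKM, with an SD of 0.166.

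By ancestry, all 30 large subunit genes whose product has a relative in the bacterial ribosome lay above 0 (median log2 difference 0.05). Of the 18 without one, 12 did (median 0.02). These values moved with the processing and with single libraries. With array weights the counts were 27 of 30 and 9 of 18, with medians of 0.05 and 0.0097. With a length trend removed they were 28 and 10, with medians of 0.04 and 0.01. Without pemafibrate 3 the counts were 25 of 30 and 9 of 18, with medians of 0.03 and 0.0014, and without vehicle 4 they were 25 and 10, with medians of 0.03 and 0.01. Without vehicle 7 they were 29 and 13, with medians of 0.10 and 0.03, and without pemafibrate 8 also 29 and 13, with medians of 0.09 and 0.03. In the small subunit 15 of 18 genes with a bacterial relative and 9 of 11 without one were above 0, with medians of 0.04 and 0.05. No test was made between these groups, and the grouping, from common knowledge of mitoribosome structure, was written after the values were seen.

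In the small subunit 6 genes had an unadjusted p under 0.05, 5 higher and 1 lower. Mrps6 (chromosome 16, 92058336 to 92112227) had the highest log2 difference of all 77 members. It encodes a protein at the side platform of the subunit, and measured 54.9, 54.8 and 57.1 RPKM in vehicle 3, 4 and 7 and 70.3, 67.6 and 58.7 RPKM in pemafibrate 3, 7 and 8. The groups did not overlap, but pemafibrate 8 lay much nearer to vehicle than the other pemafibrate samples did. The log2 difference was 0.23 ± 0.07 (SE), a fold of 1.17 with a 95% interval of 1.06 to 1.31, and the limma adjusted p was 0.271. Slc5a3, the gene for an inositol transporter, shares 159 bases of GENCODE exons with Mrps6 on the same strand. Slc5a3 itself measured a log2 difference of 0.21 ± 0.06 (limma adjusted p = 0.239), and reads in the shared bases cannot be told apart.

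Mrps17 (chromosome 5, 129715450 to 129718712), a protein that binds the ribosomal RNA of the small subunit, measured 43.5, 40.3 and 40.8 RPKM in the vehicle samples and 51.2, 49.0 and 43.6 RPKM in the pemafibrate samples. Its groups nearly met at vehicle 3 and pemafibrate 8 without overlapping, and the log2 difference was 0.20 ± 0.06 (limma adjusted p = 0.337). Mrps35 measured 27.4, 29.0 and 26.8 RPKM against 31.4, 31.4 and 29.7 RPKM, without overlap (limma: log2 difference 0.15 ± 0.05, adjusted p = 0.312). Mrps35, Mrps22 and Mrps27 are proteins with no bacterial relative. Mrps22, in which human mutations cause a disorder of mitochondrial translation, measured 37.4, 33.4 and 36.5 RPKM against 40.5, 40.3 and 39.0 RPKM, also without overlap (limma: log2 difference 0.16 ± 0.05, adjusted p = 0.337). Mrps27, an RNA-binding protein with pentatricopeptide repeats, measured 21.4, 21.9 and 23.3 RPKM against 24.0, 25.5 and 23.2 RPKM, with vehicle 7 just above pemafibrate 8 (limma: log2 difference 0.12 ± 0.05, adjusted p = 0.516).

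Mrps26 (chromosome 2, 130563757 to 130565394), another protein with no bacterial relative, went the other way. It measured 68.2, 72.4 and 73.1 RPKM in the vehicle samples and 66.7, 63.5 and 66.9 RPKM in the pemafibrate samples, and every pemafibrate sample lay below every vehicle sample. The log2 difference was -0.12 ± 0.04, with a limma adjusted p of 0.414. The next lowest log2 differences in the small subunit were -0.06 for Mrps7, -0.05 for Mrps24 and -0.02 for Mrps2, with unadjusted limma p of 0.234, 0.289 and 0.775. Mrps7 measured 61.2, 62.5 and 56.3 RPKM against 56.6, 57.0 and 58.8 RPKM, with overlap.

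**Figure D4:**
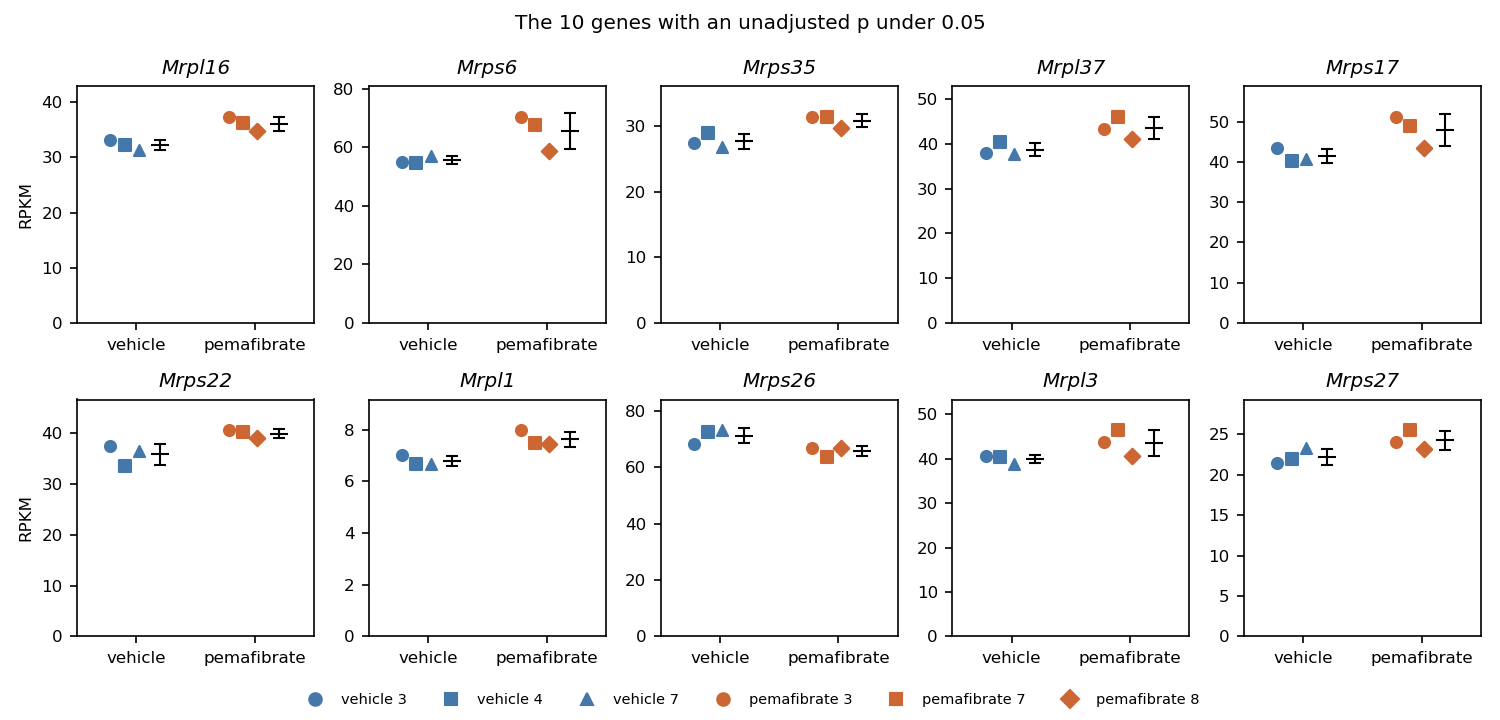
RPKM of the 10 members with an unadjusted p under 0.05, in order of p, with 1 point per library (blue for vehicle, orange for pemafibrate) and, to the right of each group, the mean and SD (n = 3). In 7 of the 9 higher genes and in Mrps26, which is lower, the groups do not overlap, and none of the 10 passes an adjusted p of 0.05. The genes were chosen by p on these same values, so groups that stand apart add no support.

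The genes along the path of the messenger RNA and at the decoding site (Mrps2, Mrps5, Mrps12 and Mrps24) had a median log2 difference of 0.0017, with 2 of 4 above 0. This class too was written after the values were seen. Mrps5 measured 49.2, 45.5 and 45.2 RPKM in the vehicle samples and 47.3, 46.3 and 48.3 RPKM in the pemafibrate samples, so the groups overlapped (limma adjusted p = 0.934). Mrps34, in which human mutations destabilise the small subunit, measured 63.2, 64.0 and 63.9 RPKM against 67.8, 63.7 and 66.8 RPKM (limma adjusted p = 0.748). Of its GENCODE exon bases 63.4% are shared with Mapk8ip3 on the opposite strand and 37.0% with Nme3 on the same strand, so its reads are uncertain. Mrps16 measured 84.8, 77.5 and 87.8 RPKM against 93.5, 86.0 and 78.8 RPKM, with overlap (limma adjusted p = 0.905). The widest spread within groups in the small subunit belonged to Mrps14, at 21.2, 19.4 and 24.5 RPKM against 25.7, 22.5 and 21.1 RPKM, followed by Mrps18c.

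Mrps18a, Mrps18b and Mrps18c are 3 related genes that descend from 1 bacterial ribosomal protein. In mammalian ribosome structures the Mrps18a and Mrps30 products sit in the large subunit despite their names. Mrps18b had the highest level, at 60.8, 64.8 and 66.4 RPKM in the vehicle samples and 67.5, 63.6 and 67.8 RPKM in the pemafibrate samples. Mrps18c measured 60.0, 51.7 and 61.8 RPKM against 66.1, 60.7 and 53.6 RPKM, and Mrps18a 48.2, 46.5 and 49.0 RPKM against 48.6, 49.6 and 46.9 RPKM. The groups overlapped for all 3, with limma adjusted p of 0.953, 0.814 and 0.912 for Mrps18a, Mrps18b and Mrps18c. Mrps36 carries a ribosomal name but is known as a component of the 2-oxoglutarate dehydrogenase complex. It measured 27.0, 24.0 and 30.1 RPKM against 29.5, 26.7 and 27.4 RPKM (limma adjusted p = 0.922), and leaving it out made the count above 0 equal to 65 of 76.

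A further 6 proteins of the mitoribosome carry other symbols. For Dap3, Ptcd3, Ict1, Gadd45gip1, Chchd1 and Aurkaip1 limma called 0, 5 of 6 log2 differences were above 0, and the median was 0.07. Aurkaip1, a small subunit protein, measured 61.3 ± 2.85 RPKM in the vehicle samples and 66.2 ± 0.279 RPKM in the pemafibrate samples (mean ± SD, n = 3 each), without overlap (limma: log2 difference 0.11 ± 0.04, adjusted p = 0.443). Dap3 and Ptcd3, of the small subunit too, measured 21.4 and 35.7 RPKM in the vehicle samples and 22.0 and 37.4 RPKM in the pemafibrate samples.

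The rest of the mitochondrial translation pathway gave no call by limma or voom. Among 13 translation factors, which start, extend and end the chain, 7 were above 0, with a median log2 difference of 0.0082 and none at an unadjusted p under 0.05. Taco1 had the smallest p of them and was lower, at 16.9 ± 0.863 against 15.9 ± 0.503 RPKM (limma adjusted p = 0.722). Tufm, the mitochondrial elongation factor Tu, measured 54.9 ± 1.99 against 57.0 ± 1.21 RPKM (limma adjusted p = 0.760). Among 26 genes for assembly and ribosomal RNA modification 20 were above 0, with a median of 0.05 and none at an unadjusted p under 0.05. Mtg2, a GTPase of large subunit assembly, had the smallest p, at 13.8 ± 1.14 against 15.6 ± 1.36 RPKM (limma adjusted p = 0.570). Malsu1, an assembly factor of the large subunit, measured 22.6 ± 1.07 against 25.5 ± 3.22 RPKM (limma adjusted p = 0.630).

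Among 20 genes that charge mitochondrial tRNAs, 12 were above 0, with a median of 0.01. Gatc, part of the enzyme that makes glutaminyl-tRNA, measured 15.4 ± 0.865 against 16.9 ± 0.484 RPKM and was the only one with an unadjusted p under 0.05 (limma adjusted p = 0.479). Vars2 had the next smallest p and was lower without overlap, at 10.4 ± 0.258 against 9.57 ± 0.507 RPKM (limma adjusted p = 0.593). Among 12 genes for maintenance and transcription of mitochondrial DNA 8 were above 0, with a median of 0.03. Slirp, which stabilises mitochondrial messenger RNAs together with Lrpprc, measured 43.1 ± 3.70 against 50.7 ± 4.09 RPKM (limma: log2 difference 0.23 ± 0.08, adjusted p = 0.382), and Lrpprc 26.9 ± 0.642 against 28.6 ± 1.35 RPKM. Polg, with the next smallest p after Slirp, was lower without overlap, at 47.7 ± 0.413 against 45.6 ± 0.523 RPKM (limma: log2 difference -0.06 ± 0.03, adjusted p = 0.616). The RNAs made from mitochondrial DNA were not analysed here.

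Among regulators of nuclear genes for mitochondria, 12 were listed, 10 were tested, and 3 of the 10 were above 0, with a median of -0.03. The 2 left out by the filter were Ppara, the gene for PPARalpha (0 to 0.0145 RPKM), and Ppargc1a (0 to 0.0103 RPKM). Limma called none of them (before adjustment 2 had a p under 0.05, Rxra and Myc), and voom called Rxra, a partner of PPAR receptors, as higher (adjusted p = 0.00946). Rxra measured 10.1 ± 0.106 RPKM in the vehicle samples and 12.5 ± 0.568 RPKM in the pemafibrate samples (limma: log2 difference 0.29 ± 0.05, adjusted p = 0.0721). Myc, an activator of ribosome and mitochondrial genes, measured 150 ± 10.1 against 132 ± 6.83 RPKM, without overlap of the groups (limma: log2 difference -0.18 ± 0.06, adjusted p = 0.374). Gabpb1, a subunit of GABP, measured 13.2 ± 0.492 against 12.5 ± 0.143 RPKM (limma adjusted p = 0.729).

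The groups most like the mitoribosome had medians of the same size. Among 81 tested genes of the cytosolic ribosome, 67 lay above 0 (median log2 difference 0.06), and of 79 nuclear genes of the respiratory chain and ATP synthase 64 were above 0, with a median of 0.06. Limma and voom called 0 genes in either group. Before adjustment limma had 4 genes (4.94%) of the cytosolic ribosome and 9 (11.4%) of the respiratory chain group with a p under 0.05, all of them higher. Over all tested genes 4.76% were higher and 4.90% lower at that p. A difference between these groups and the mitoribosome was not tested.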

How the data were processed

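Messenger RNA of 6 samples was sequenced from stranded libraries, and the treatment label gave each sample its group (3 vehicle, 3 pemafibrate). The submitters' processing notes name featureCounts 1.4.6, HISAT2 2.1.0, Trimmomatic 0.35, edgeR and bcl2fastq as tools and GRCm38 and mm10 as builds. Annotation and strandedness of counting are not given in the sources used here. The authors deposited RPKM values of 24421 genes along with p-values, adjusted values and a log2 fold change of their own comparison, per the file headers. The authors' deposited ranking column is of another kind and was not used.

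The deposited RPKM values were whole multiples of the worth of 1 read for all 16822 genes above 0 (100% within a relative tolerance of 1e-06), which gave whole reads and library sizes of 14935351 to 18322467. The 11360 genes whose mean reached 0.5 RPKM entered limma 3.58.1 (R 4.3.3) as log2(RPKM + 0.5), with a trend in the prior variance and Benjamini-Hochberg adjustment over all of them at 0.05. Fold changes on this scale understate the change of low genes. Voom was run on the recovered reads of genes with a mean of at least 10. The limma procedure and the recovery of reads were tested on simulated data; voom was not.

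The members and lists were chosen with earlier results of these data known, and the classes by ancestry and position were written after values were seen. Named genes are members with an unadjusted p under 0.05, the 4 highest and 4 lowest log2 differences, the 3 highest and 3 lowest levels and the 2 widest spreads in each subunit, a panel of 13 genes, and up to 3 genes of each pathway list with the smallest p. Dap3, Lrpprc, Mapk8ip3, Nme3, Nr2c2, Peo1, Ppara, Ppargc1a and Slc5a3 were added where a sentence needed them. 1 marker gene of the planned Th17 list is not reported here, and the sum over that list leaves it out. Promoters (GRCm38.p6) and the printed gene positions come from RefSeq, and exons and distances between gene starts from GENCODE for GRCm38. As alternatives, the pseudocount was set to 0.1 and 1 and the filter to none and 2 RPKM, beside median ratio and quantile scaling, array weights, the title number as a block, voom, removal of a length trend, and leaving out each sample. Python 3.11.15 with matplotlib 3.10.9 drew the figures.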

Additional observations from a re-analysis of the deposited data

How the results depend on the processing

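No member was called under any of the 16 alternatives, and the smallest adjusted p of a member under any of them was 0.0791 (limma, Mrps6 without pemafibrate 8). The number of members above 0 ranged from 51 (without pemafibrate 3) to 68, against 66. With each sample left out in turn the number of members at an unadjusted p under 0.05 ranged from 6 (without vehicle 4) to 14, against 10. The median log2 difference then ranged from 0.02 to 0.07 for the large and from 0.01 to 0.08 for the small subunit. Over all tested genes limma called 40, against 140 with array weights, 7 with no filter, 148 by voom and 0 to 25 with each sample left out. The cause of these differences was not tested.

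The samples share title numbers 3 and 7. Deviations from the group means of same-numbered samples correlated at 0.030 and -0.0083 over 11360 genes, which are not independent replicates. Differently numbered samples correlated at -0.220 to 0.199, so these values cannot decide whether samples were paired. The main comparison does not take the numbers to pair the samples. With the title number as a replicate block, 0 of all tested genes were called, 63 members lay above 0, 7 had an unadjusted p under 0.05, and the medians were 0.05 and 0.06. There vehicle 4 and pemafibrate 8 have no partner, so the treatment difference rests on samples 3 and 7 of each group. Under that block the medians of large subunit genes with and without a bacterial relative were 0.05 and 0.04. Depth was at least 234 reads for every member, and with 3 samples a group the median half-width of a 95% interval was 0.12 on the log2 scale. The planned protein lengths and identities were not run.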

Other observations

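Many members start next to another gene on the opposite strand. In GENCODE, 18 of 77 (23.4%) have a protein-coding gene that starts within 1000 bases and runs the other way without overlap at the starts. This compares with 1191 of 10291 tested protein-coding genes (11.6%). Pairs that overlap at their starts were not counted in either share. Mrpl49 starts 59 bases from Fau, which encodes a cytosolic ribosomal protein, and Mrps12 starts 172 bases from Sars2, the mitochondrial seryl-tRNA synthetase. Mrpl32 starts 75 bases from Psma2, a proteasome subunit. Of 17 tested partners 11 lay above 0 (median log2 difference 0.0079), and limma called none of the 17. These neighbours were looked up after the values of the members were known.

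With genes matched by symbol, exon bases are shared with another gene of the table in 23 members. In 11 of them the shared bases exceed 10% of the exons. Genes that the table holds under another symbol were missed, so both counts are lower limits. Twnk, in the table as Peo1, was missed in this way and shares 33.4% of the exon bases of Mrpl43 on the opposite strand. Mrpl46 and Mrps11, both members, overlap each other by 173 bases on opposite strands.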
